A study of Mus musculus with 16 samples.

Results

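The matrix metalloproteinases (Mmp genes), the ADAMTS proteases with their ADAMTS-like relatives (Adamts and Adamtsl genes) and the 4 tissue inhibitors of metalloproteinases (Timp1 to Timp4) were followed across mouse skeletal muscle. Members were chosen by symbol alone: every gene whose symbol began with Mmp and a digit or with Adamts, together with the 4 Timp genes. This gave 51 of the 55487 genes in the table, of which 37 passed the filter on low counts and were tested. RNA-seq was carried out on bulk skeletal muscle in 4 groups of 4 libraries. These were wild-type mice without training (untrained WT), wild-type mice after treadmill training (trained WT), mice labelled CHCHD4 Tg without training (untrained Tg) and mice labelled CHCHD4 Tg after treadmill training (trained Tg). CHCHD4 is an oxidoreductase of the mitochondrial intermembrane space. What Tg stands for in the construct, the promoter that drives it, the muscle sampled, the strain, the age and the length of training are not given in the sources used here, and nothing in them says that each library is its own animal. The p-values therefore set differences between groups only against the scatter of libraries within a group, which may be technical.

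Library totals ranged from 40888325 to 61703724 counts, so that a single count was worth 0.0175 to 0.0262 CPM (library-size scaled counts after TMM normalization). Myofibre markers were abundant in every library (summed level of 7 genes 120900 to 186200 CPM), and Chchd4 measured 6.88 to 8.98 CPM in WT and 18.1 to 22.2 CPM in Tg libraries. Untrained WT replicate 2 stood apart, with the highest TMM factor (1.28) and the lowest myofibre sum. Untrained Tg replicate 1 and trained Tg replicate 1 were the only libraries above 0.3 CPM of the neutrophil granule gene Ltf (0.461 and 1.25 CPM). Trained WT replicates 2 and 3 were the only libraries under 10 CPM of the tendon gene Fmod (3.75 and 9.87 CPM). Alb, the albumin gene of liver, measured 35.6 CPM in trained WT replicate 4, 14.93 in untrained WT replicate 2 and 14.97 in untrained Tg replicate 2, and at most 0.236 CPM in the other libraries. In bulk tissue, fewer cells of a type and less RNA per cell cannot be told apart.

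MMPs and ADAMTS proteases are zinc-dependent enzymes that are made as inactive precursors and cleave matrix proteins outside the cell. MMPs as a family degrade fibrillar collagen, basement membrane and denatured collagen, while ADAMTS enzymes cleave proteoglycans such as versican and aggrecan or trim procollagens. ADAMTS-like proteins share the ancillary domains but carry no protease domain, and TIMPs bind the active site of the enzymes and block it. In skeletal muscle these genes are known from fibroblasts, vessels and infiltrating leukocytes, and from remodelling of the matrix after exercise or injury.

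The promoter windows are shown of 4 members whose values are described further on, none of them called in the fit reported. Mmp13 and Mmp3 lie in the same gene cluster, with Mmp12 and Mmp1b between them, and had log2FC of opposite sign between genotypes. Mmp14 and Timp2 were among the 4 members with the smallest p for training averaged over genotypes. Each window is a stretch of 300 bases across the RefSeq transcription start (GRCm38.p6), most of it upstream, 5′ to 3′ on the gene strand, with capitals on every match to an AP-1 site (TGANTCA, both strands), a Runx core (TGTGGT, both strands), a GC box (GGGCGG, both strands) or a TATA box (TATAAA, gene strand).
Mmp13 (chr9:7272264-7272563, plus strand): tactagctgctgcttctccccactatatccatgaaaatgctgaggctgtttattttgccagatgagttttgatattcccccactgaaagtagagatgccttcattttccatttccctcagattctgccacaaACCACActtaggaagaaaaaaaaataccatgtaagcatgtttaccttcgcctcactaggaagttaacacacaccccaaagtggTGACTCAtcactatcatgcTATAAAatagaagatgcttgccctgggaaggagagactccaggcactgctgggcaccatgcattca
Mmp3 (chr9:7445572-7445871, plus strand): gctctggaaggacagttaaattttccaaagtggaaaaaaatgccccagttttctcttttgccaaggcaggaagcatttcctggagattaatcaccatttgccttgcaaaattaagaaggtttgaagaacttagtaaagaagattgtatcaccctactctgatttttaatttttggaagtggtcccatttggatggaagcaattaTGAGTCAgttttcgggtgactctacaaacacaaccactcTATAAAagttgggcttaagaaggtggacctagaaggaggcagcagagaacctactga
Mmp14 (chr14:54431348-54431647, plus strand): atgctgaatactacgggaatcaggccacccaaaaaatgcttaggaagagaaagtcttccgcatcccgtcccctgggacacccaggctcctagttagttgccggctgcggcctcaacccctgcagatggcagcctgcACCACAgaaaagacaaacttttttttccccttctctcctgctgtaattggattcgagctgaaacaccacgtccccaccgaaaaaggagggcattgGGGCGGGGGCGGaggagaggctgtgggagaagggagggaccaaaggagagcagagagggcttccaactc
Timp2 (chr11:118355362-118355661, minus strand): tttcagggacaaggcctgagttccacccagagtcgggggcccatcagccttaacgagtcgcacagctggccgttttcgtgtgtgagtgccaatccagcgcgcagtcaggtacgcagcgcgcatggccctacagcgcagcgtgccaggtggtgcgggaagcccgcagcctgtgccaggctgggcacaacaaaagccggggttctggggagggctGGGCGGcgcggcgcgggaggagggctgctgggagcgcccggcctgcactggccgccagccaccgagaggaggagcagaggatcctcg

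The Mmp13 window held an AP-1 match at -35 to -29 and a TATA match at -16 to -11 from the start, and the Mmp3 window held them at -46 to -40 and at -7 to -2. Neither held a GC box. The Mmp14 window held 2 adjoining GC boxes, the Timp2 window held 1, and neither held an AP-1 or TATA match. Base composition differed in the same way, with 43.7% and 40% G and C in the Mmp13 and Mmp3 windows against 56% and 68.7% for Mmp14 and Timp2 (median of 32851 windows 52.7%). A window was found for 36 of the 51 members. Of these, 10 belong to the Mmp cluster of chromosome 9 (GRCm38, 7272514 to 7699585, 427.1 kb, from Mmp13 to Mmp7), and 8 of the 10 had an AP-1 match, against 0 of the other 26 and 7.81% of all windows. The same 8 cluster genes had a TATA match, as did 3 of the other 26 members and 8.32% of all windows. Conversely, 22 of the other 26 members and none of the 10 cluster genes had a GC box, which 35.7% of all windows held. A match describes these letters and is no evidence of binding.

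Levels were highest for some inhibitor and protease genes. Per kilobase of exon, the highest mean levels over the 16 libraries belonged to Timp3 (14.6 CPM per kb), Timp2 (11.6), the gelatinase gene Mmp2 (8.96) and the proteoglycan-cleaving protease gene Adamts1 (6.70). Timp4, a TIMP of heart and muscle, followed at 3.82, then the non-catalytic Adamtsl5 (3.65) and Adamtsl4 (2.92), the membrane-type Mmp15 (2.08) and the aggrecanase gene Adamts5 (1.46). Next came the collagenase gene Mmp13 at 1.10, the procollagen N-propeptidase gene Adamts2 at 1.03 and Adamts9, a versican-cleaving protease gene, at 0.991. Timp3 lay at the 94.1st percentile of all tested genes on this scale, and Adamts9 at the 50.3rd. Summed per kilobase, Timp genes gave 34.2 ± 2.11 CPM per kb in untrained WT, 29.98 ± 4.88 in trained WT, 30.7 ± 1.59 in untrained Tg and 27.0 ± 1.51 in trained Tg libraries (SD, n = 4 for each group, as throughout). Mmp genes summed to 17.3 ± 1.39, 13.1 ± 2.61, 16.5 ± 2.28 and 14.6 ± 2.09 CPM per kb in the same order.

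**Figure D1:**
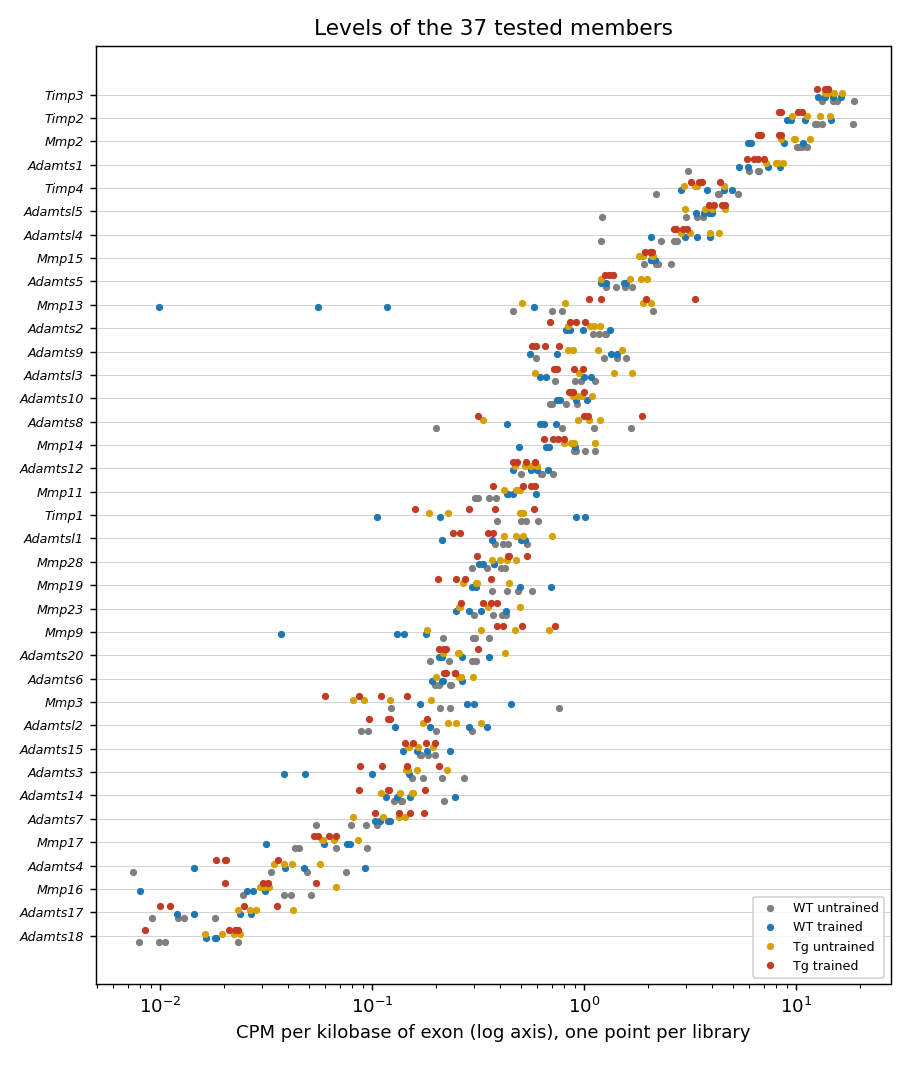
Level of each of the 37 tested members in CPM per kilobase of exon (log axis), with a point for each of the 16 libraries coloured by group; a library at 0 (Adamts18 in trained WT replicate 4) is not drawn. Timp3 is highest, Mmp15 has the tightest points and Mmp13 is the most scattered, with the lowest mean in trained WT libraries.

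Of the 14 members below the filter, 8 lie in the chromosome 9 cluster. Mmp1a and Mmp1b, the rodent counterparts of interstitial collagenase, the matrilysin gene Mmp7 and the enamelysin gene Mmp20 had 0 counts in all 16 libraries, and the stromelysin gene Mmp10 had a single count. The neutrophil collagenase gene Mmp8 (52 counts over 16 libraries), the macrophage elastase gene Mmp12 (110) and Mmp27 (99) were detected near the floor. Mmp8 was highest in trained Tg replicate 1 (0.279 CPM) and untrained Tg replicate 1 (0.161 CPM), the libraries high in Ltf, and Mmp12 was highest in trained WT replicate 4 (0.749 CPM). Outside the cluster, Mmp21, Mmp24, Mmp25, Adamts13, Adamts16 and Adamts19 totalled 12 to 139 counts. In the cluster only Mmp13 and Mmp3 were tested, and their starts lie 173.3 kb apart.

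Members differed in how steady they were within a group. The mean within-group coefficient of variation was 6.19% for Mmp15 and 9.83% for Timp3, against a median of 22.3% for the 37 members and 12.99% for all tested genes. It was 81.4% for Mmp13, 50.9% for Mmp3, 50.4% for Timp1 and 37.8% for Mmp9. Several members share sequence with genes on the other strand, and strand was not stated for the counting, so reads of the partners cannot be told apart. Mmp11 shares 155 exonic bases with Chchd10, a mitochondrial protein gene at 104 to 223 CPM, and Mmp19 shares 789 with Tmem198b. Timp3 and Timp4 lie inside the synapsin genes Syn3 (1.08 to 2.08 CPM) and Syn2 (0.236 to 0.832 CPM), with 1733 and 90 shared exonic bases.

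Few members passed the test in any comparison. The 16 libraries were fitted in a single edgeR quasi-likelihood model with 7 contrasts, and calls were made where the p, after Benjamini-Hochberg adjustment over the 17490 tested genes, was below 0.05. No member was called for training in WT (0.143% of all tested genes were), for training in Tg (0%), between genotypes without training (0.743%) or with training (0.0114%), for the difference between the training responses (0.0515%), or for training averaged over genotypes (0.457%). Between genotypes averaged over training states, 1 of 37 was called, Mmp9, against 1.12% of all tested genes. At an unadjusted p under 0.05 the members numbered 8 of 37 for training in WT (21.6%, against 9.55% of all tested genes), 6 for training in Tg (16.2%, against 11.1%), 8 for genotype without training (21.6%, against 16.2%) and 6 with training (16.2%, against 7.98%). They numbered 5 for the difference of responses (13.5%, against 6.03%), 10 for training averaged over genotypes (27%, against 14.4%) and 10 for genotype averaged over training (27%, against 17.2%). DESeq2 called 0 members in the first 3 comparisons and in the difference of responses, and 2 in each of the others. Of all 17490 tested genes it called 68, 126 and 442 in the first 3 and 35 in the difference of responses. It called 54 for genotype with training, 367 for training averaged over genotypes and 639 for genotype averaged over training.

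**Figure D2:**
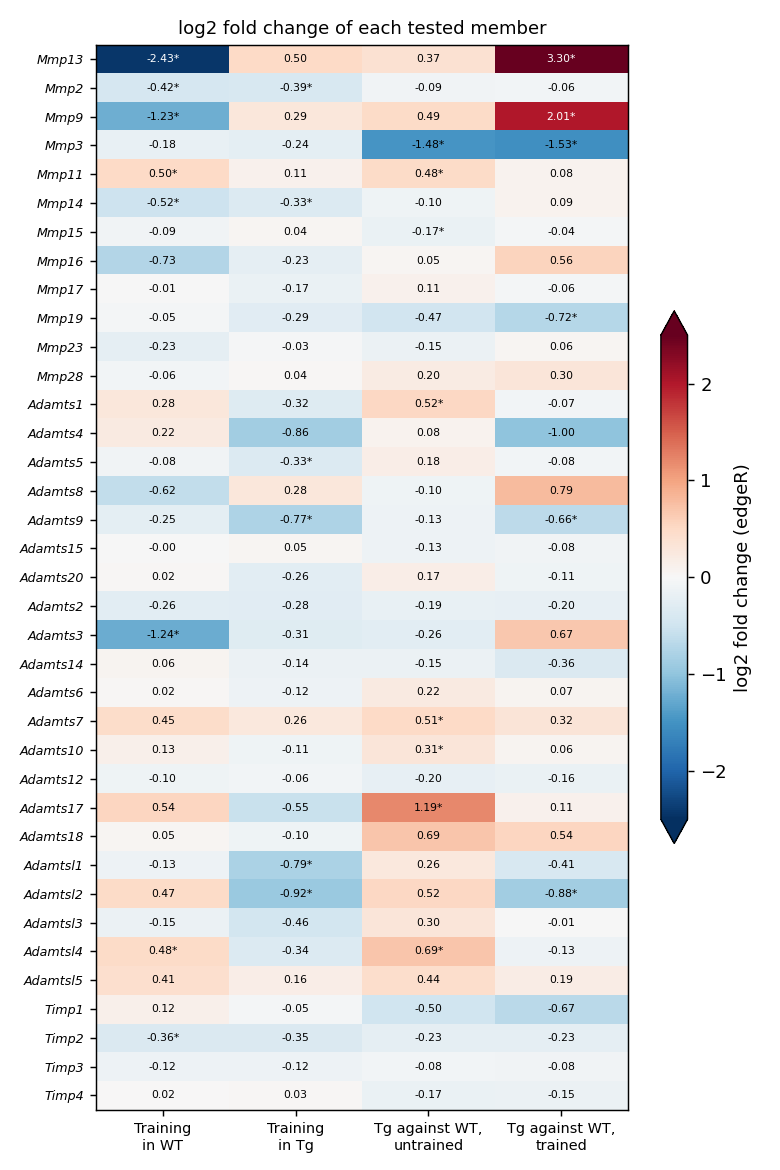
Log2 fold change (edgeR) of the 37 tested members, rows ordered by role, in the 4 pairwise comparisons; asterisks mark an unadjusted p under 0.05, and the colour scale is clipped. No cell passed the adjusted threshold, and Mmp13 shows the lowest value for training in WT (-2.43) and the highest for genotype with training (3.30).

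Mmp9 and Mmp13 were higher in trained Tg than in trained WT muscle. Of these only Mmp9 was called, between genotypes averaged over training states. Without training the log2FC in Tg was 0.49 for Mmp9 (SE 0.358, edgeR adjusted p = 0.544). For Mmp13 it was 0.37 (SE 0.621, adjusted p = 0.822). Mmp9 encodes gelatinase B, a protease of osteoclasts and neutrophils among other cells, and Mmp13 encodes a collagenase of bone and cartilage. Mmp9 (ENSMUSG00000017737.2, GRCm38 chromosome 2, 164940780 to 164955850) measured 1.08, 1.26, 1.06 and 0.765 CPM in untrained WT replicates 1 to 4, 0.632, 0.463, 0.131 and 0.499 in trained WT, 1.67, 1.15, 2.40 and 0.640 in untrained Tg, and 2.58, 1.37, 1.79 and 1.46 in trained Tg. All trained Tg libraries lay above all WT libraries, trained or not, whereas untrained Tg libraries overlapped untrained WT ones. Averaged over training states its log2FC in Tg was 1.25 (SE 0.267, edgeR adjusted p = 0.0347). With training it was 2.01 (SE 0.394, adjusted p = 0.250; DESeq2 called it, adjusted p = 0.000760), and for training in WT it was -1.23 (SE 0.409, adjusted p = 0.378). The call rested on a narrow margin. It was lost without any of untrained WT replicates 1, 3 or 4, trained WT replicates 3 or 4, or any of the 8 Tg libraries other than untrained Tg replicate 4, each left out singly. It was also lost without the 4 libraries above 10 CPM of the slow-fibre gene Myh7 (log2FC 0.99, adjusted p = 0.0831) and without the 2 libraries low in Fmod (1.07, adjusted p = 0.0860). The adjusted p ran from 0.000723 to 0.0966 over the 23 alternatives.

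Mmp13 (ENSMUSG00000050578.10, GRCm38 chromosome 9, 7272514 to 7283331) measured 5.65, 2.10, 1.89 and 1.23 CPM in untrained WT replicates 1 to 4, 0.149, 1.55, 0.0262 and 0.312 in trained WT, 5.50, 1.35, 5.07 and 2.16 in untrained Tg, and 8.85, 2.81, 5.19 and 3.18 in trained Tg. Every trained Tg library was above every trained WT library, the lowest of which held a single count, and the untrained groups overlapped. The log2FC between genotypes with training was 3.30 (SE 0.743, adjusted p = 0.287), and DESeq2 called it (adjusted p = 0.0360). Averaged over training states it was 1.84 (SE 0.486, adjusted p = 0.0734), and for training in WT it was -2.43 (SE 0.755, adjusted p = 0.350). Groups that did not overlap between genotypes with training were found for 2 members in the higher direction, Mmp9 and Mmp13, and for 2.94% of all tested genes. Without trained WT replicate 2 the log2FC with training was 4.86 and Mmp13 was called (adjusted p = 0.0405). That fit called 16 genes in all, against 2 with all libraries. The difference between training responses was 2.93 (SE 0.972, adjusted p = 0.630) for Mmp13 and 1.52 (SE 0.535, adjusted p = 0.653) for Mmp9.

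The bone markers Ibsp and Acp5 had values in the same direction as this pair, and no bone marker was called. Ibsp, the bone sialoprotein gene, measured 2.06, 1.51, 1.01 and 0.483 CPM in untrained WT, 0.093, 0.486, 0 and 0.208 in trained WT, 1.97, 0.635, 3.25 and 0.677 in untrained Tg, and 5.13, 1.72, 1.67 and 1.65 in trained Tg. Acp5, the osteoclast acid phosphatase gene, lay between 0.112 and 0.583 CPM in trained WT and between 1.09 and 2.62 CPM in trained Tg libraries. Sp7, the other bone marker tested, ran from 0.0999 to 0.178 CPM in untrained WT, 0 to 0.250 in trained WT and 0.123 to 0.408 in trained Tg libraries. For training in WT, 2 of the 3 tested bone markers were negative and 1 was positive. Between genotypes with training, all 3 were positive. The log2FC in Tg averaged over training states was 2.02 for Ibsp (adjusted p = 0.0536) and 1.26 for Acp5 (adjusted p = 0.0730), and with training the adjusted p was 0.267 and 0.287. In all, the 5 bone markers fixed (5 of 5 in the table, 3 of 5 tested) summed to 1.59 to 3.54 CPM in untrained WT, 0.279 to 1.48 in trained WT, 1.63 to 7.12 in untrained Tg and 3.07 to 8.48 in trained Tg libraries. Trained WT replicate 3, lowest in Mmp9 and Mmp13, had 3 of the 5 at 0 counts; the lowest sum was in trained WT replicate 1, with 1 of the 5 at 0. Trained Tg replicate 1, highest in both genes, had the highest sum. Neutrophil markers (8 of 8 in the table, 2 tested) summed to 0.0971 to 5.02 CPM in trained Tg and 0.104 to 1.02 CPM in trained WT libraries, highest again in trained Tg replicate 1, and up to 5 of the 8 were at 0 in a library. The part of these cells in the Mmp9 and Mmp13 differences was not tested. Without untrained Tg replicate 1 and trained Tg replicate 1, the libraries high in Ltf, the averaged log2FC of Mmp9 was 1.10 and was not called (adjusted p = 0.0966).

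**Figure D3:**
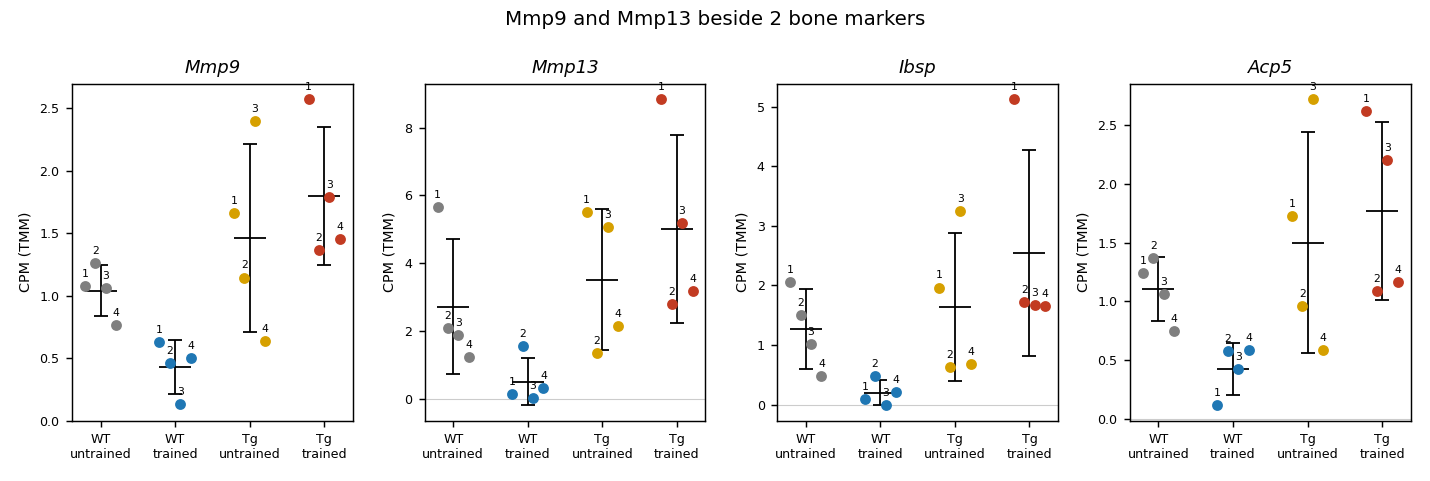
CPM of Mmp9, Mmp13 and the bone markers Ibsp and Acp5 by group, with a numbered point for each replicate and the mean ± SD (n = 4) in black. For all 4 genes the trained WT libraries are lowest on average and trained Tg replicate 1 is the highest or second highest library of the 16.

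Mmp3, which encodes stromelysin-1, a broad matrix protease of fibroblasts, was lower in Tg muscle without passing the test. It measured 0.420, 1.37, 0.377 and 0.222 CPM in untrained WT replicates 1 to 4, 0.502, 0.301, 0.812 and 0.541 in trained WT, 0.341, 0.164, 0.218 and 0.146 in untrained Tg, and 0.107, 0.263, 0.197 and 0.155 in trained Tg, or 5 to 77 counts a library. The trained groups did not overlap (2.76% of all tested genes in this direction), and the untrained groups did. Averaged over training states the log2FC was -1.51 (SE 0.362, adjusted p = 0.0536), and DESeq2 called it (adjusted p = 0.00528). Without training the log2FC was -1.48 (SE 0.500, adjusted p = 0.173), and it was -0.64 without untrained WT replicate 2. Leaving out that library gave an averaged log2FC of -1.09, which was called (edgeR adjusted p = 0.0467), in a fit that called 351 genes against 196. The averaged value was called in 5 of the 23 alternatives, with adjusted p from 0.00528 to 0.170. Mmp19, another secreted MMP gene, had an averaged log2FC of -0.60 (SE 0.186, adjusted p = 0.118). Of 7 macrophage markers all had a negative averaged log2FC (median -0.73, against 50.2% of all tested genes negative), and none was called (smallest p for Itgam, adjusted p = 0.0550). Their sum ran from 17.5 to 55.5 CPM in trained WT and from 17.6 to 23.8 CPM in trained Tg libraries. Of 10 fibroblast and fibro-adipogenic progenitor markers, 9 had a negative averaged log2FC (median -0.13), and none was called (smallest p for Ly6a, adjusted p = 0.0587). The part of macrophages or fibroblasts in the Mmp3 and Mmp19 values was not tested.

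Training went with lower levels of many members, although none was called. Averaged over genotypes, 29 of 37 members had a negative log2FC (median -0.12), against 49.5% of all tested genes (median 0.00). At an unadjusted p under 0.05, 8 members (21.6%) were on the lower side, against 7.76% of all tested genes. The smallest p belonged to Mmp14, the membrane-anchored collagenase that activates pro-MMP2, and to Mmp2, gelatinase A of connective tissue cells. Timp2, whose product bridges the proteins of both in the activation complex, had the smallest p after these and Adamts3. Mmp2 (ENSMUSG00000031740.8, GRCm38 chromosome 8, 92827291 to 92853420) measured 37.9, 35.7, 34.0 and 34.6 CPM in untrained WT replicates 1 to 4, 29.3, 19.9, 20.5 and 36.1 in trained WT, 32.8, 33.2, 39.2 and 28.6 in untrained Tg, and 27.9, 22.9997, 28.5 and 22.3 in trained Tg. Trained Tg libraries lay below all untrained Tg libraries, and in WT the groups overlapped through trained WT replicate 4. Its log2FC was -0.42 (SE 0.156, adjusted p = 0.429) in WT, -0.39 (SE 0.156, adjusted p = 0.368) in Tg and -0.41 (SE 0.110, adjusted p = 0.115) averaged.

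Mmp14 (ENSMUSG00000000957.11, GRCm38 chromosome 14, 54431612 to 54445364) measured 5.97, 6.68, 5.35 and 5.42 CPM in untrained WT replicates 1 to 4, 4.04, 3.91, 2.93 and 5.41 in trained WT, 5.30, 5.14, 6.68 and 4.76 in untrained Tg, and 4.23, 3.86, 4.80 and 4.49 in trained Tg. Within each genotype the trained and untrained libraries overlapped by a single library. The averaged log2FC was -0.43 (SE 0.106, adjusted p = 0.0908). Timp2 measured 51.2, 72.1, 48.9 and 47.5 CPM in untrained WT replicates 1 to 4, 42.6, 35.2, 36.7 and 56.9 in trained WT, 43.9, 50.1, 55.9 and 37.1 in untrained Tg, and 41.4, 32.9, 39.7 and 32.4 in trained Tg. Its highest library was untrained WT replicate 2 and its averaged log2FC was -0.36 (SE 0.118, adjusted p = 0.188). Without trained WT replicate 4, 5 members were called lower for training averaged over genotypes: Mmp14 (log2FC -0.51, adjusted p = 0.0149), Mmp2 (-0.50, adjusted p = 0.0157), Adamts3 (-0.98, adjusted p = 0.0388), Timp2 (-0.44, adjusted p = 0.0460) and Adamts2 (-0.35, adjusted p = 0.0487). In that fit 389 of the 17490 tested genes were called, against 80 with all libraries. DESeq2 called Mmp14 and Mmp2 with all libraries (adjusted p of 0.0162 and 0.0328), and 367 genes in all.

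Adipocyte, fibroblast, tendon and mast cell markers were also lower after training. Of 6 adipocyte markers, 4 fell (Lep, log2FC -2.87, adjusted p = 0.0147; Cidec, Adipoq and Plin1, adjusted p of 0.0277 to 0.0451), and all 6 were negative (median -1.91). Their sum ran from 15.4 to 58.0 CPM in untrained WT, 4.85 to 15.6 in trained WT, 13.2 to 53.4 in untrained Tg and 2.58 to 12.6 in trained Tg libraries, with none of the 6 at 0. All 4 mast cell markers were negative (median -0.81, 0 called), with sums of 2.18 to 3.38, 1.10 to 3.14, 1.68 to 4.16 and 1.05 to 1.61 CPM in the same order. All 10 fibroblast and fibro-adipogenic progenitor markers had a negative averaged log2FC for training (median -0.39, 0 called), and 8 of 10 tendon and cartilage markers did (median -0.87, 0 called). The summed fibroblast level ran from 732 to 834 CPM in untrained WT, 410 to 754 in trained WT, 561 to 786 in untrained Tg and 442 to 545 in trained Tg libraries, and no fibroblast marker was at 0 in any library. The tendon sum ran from 107 to 146, 23.8 to 114, 106 to 209 and 69.8 to 113 CPM in the same order, with 1 of the 10 at 0 in untrained Tg replicate 2. Trained WT replicate 4, the trained library highest in Mmp2, Mmp14 and Timp2, was also the trained library highest in the fibroblast and tendon sums. That library also held the highest macrophage sum (55.5 CPM) and the highest sum of the liver markers (40.3 CPM, Alb 35.6 CPM). The part of adipocytes, fibroblasts, tendon, mast cells or liver RNA in these values was not tested. Without trained WT replicates 2 and 3, the libraries low in Fmod, the averaged log2FC was -0.26 for Mmp2, -0.33 for Mmp14 and -0.25 for Timp2. Over the 23 alternatives the value nearest no change was -0.26 for Mmp2, -0.27 for Mmp14 and -0.14 for Timp2. The highest adjusted p was 0.384, 0.359 and 0.646 in the same order.

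**Figure D4:**
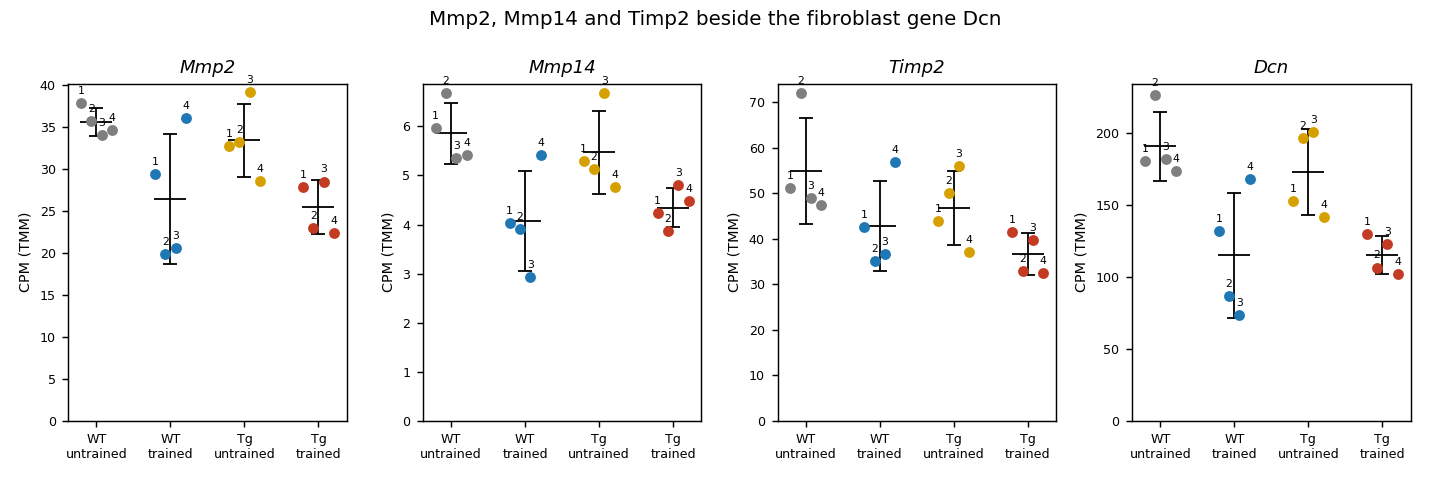
CPM of Mmp2, Mmp14 and Timp2 and of the fibroblast proteoglycan gene Dcn by group, with a numbered point for each replicate and the mean ± SD (n = 4) in black. Trained means are below untrained means in both genotypes for all 4 genes, and trained WT replicate 4 is the highest of its group in each.

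The procollagen N-propeptidases, which remove the amino-terminal propeptide of fibrillar collagens, included the Adamts gene with the lowest log2FC for training in WT. Adamts3 measured 1.16, 0.835, 0.943 and 1.47 CPM in untrained WT replicates 1 to 4, 0.539, 0.208, 0.262 and 0.812 in trained WT, 0.802, 0.778, 1.22 and 0.878 in untrained Tg, and 0.794, 0.474, 1.12 and 0.602 in trained Tg. The WT groups did not overlap, as was the case in this direction for 2.03% of all tested genes, and the Tg groups did. The log2FC for training in WT was -1.24 (SE 0.351, adjusted p = 0.311), and averaged over genotypes it was -0.77 (SE 0.242, adjusted p = 0.160). Adamts2, the main N-propeptidase of skin and tendon, had an averaged log2FC of -0.27 (SE 0.103, adjusted p = 0.252). Adamts14, the remaining member of this class, measured 0.803 ± 0.218, 0.833 ± 0.2997, 0.720 ± 0.108 and 0.653 ± 0.198 CPM in untrained WT, trained WT, untrained Tg and trained Tg libraries.

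Summed per kilobase, ADAMTS-like genes were highest in untrained Tg muscle, at 9.30 ± 0.770 CPM per kb. They gave 6.57 ± 1.95 in untrained WT (3.77 to 8.21), 8.29 ± 1.43 in trained WT and 8.35 ± 0.455 in trained Tg libraries. Adamts genes gave 15.5 ± 0.874 in untrained Tg, 13.0 ± 2.89 in untrained WT (8.68 to 14.7), 13.3 ± 1.43 in trained WT and 12.9 ± 0.692 in trained Tg libraries. Untrained WT replicate 2 held the lower end of both untrained WT ranges and so lowered both untrained WT means. No single gene was called. Adamts1, an inducible versicanase and aggrecanase gene of vessels and stroma, measured 35.3, 16.3, 35.1 and 31.7 CPM in untrained WT replicates 1 to 4, 44.3, 38.9, 28.6 and 31.3 in trained WT, 43.7, 45.8, 42.5 and 37.9 in untrained Tg, and 33.3, 35.0, 31.0 and 37.2 in trained Tg. Untrained Tg libraries lay above all untrained WT and all trained Tg libraries. Its log2FC in untrained Tg was 0.52 (SE 0.187, adjusted p = 0.196). It was 0.32 at the lowest when a single library was left out. Adamtsl4, a microfibril-associated protein gene, measured 9.61, 5.01, 11.1 and 11.5 CPM in untrained WT replicates 1 to 4, 12.6, 8.66, 14.2 and 16.4 in trained WT, 12.04, 13.3, 16.5 and 18.1 in untrained Tg, and 11.1, 11.4, 12.2 and 12.7 in trained Tg. Untrained genotypes did not overlap, and the log2FC was 0.69 (SE 0.219, adjusted p = 0.147). In this comparison 4 members had groups that did not overlap in the higher direction, namely Adamts1, Adamtsl4, Mmp11 and Adamts17, or 10.8% of 37 against 4.33% of all tested genes. Adamts17 was near the floor, at 0.0711 to 0.141 CPM in untrained WT and 0.181 to 0.327 CPM in untrained Tg libraries (log2FC 1.19, SE 0.409, adjusted p = 0.180). Untrained WT replicate 2 was the lowest of the 16 libraries for Adamts1, Adamtsl4 and Adamtsl5.

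Mmp11, the stromelysin-3 gene, measured 0.942 ± 0.1004 CPM in untrained WT, 1.33 ± 0.209 in trained WT, 1.31 ± 0.102 in untrained Tg and 1.41 ± 0.267 in trained Tg libraries. The lowest group was untrained WT, whose libraries lay below all trained WT (2.36% of all tested genes in this direction) and all untrained Tg ones. Its log2FC was 0.50 (SE 0.157, adjusted p = 0.350) for training in WT and 0.48 (SE 0.155, adjusted p = 0.159) in untrained Tg, comparisons that share the untrained WT libraries. All 5 tested Adamtsl genes had a positive log2FC in untrained Tg (median 0.44), as did 50.8% of all tested genes. All 5 also had a negative difference between training responses (median -0.66), as did 51.5% of all tested genes. Both comparisons use the untrained libraries of both genotypes, so a positive value in the first lowers the second. The lowest difference between training responses belonged to Adamtsl2, a gene of fibrillin microfibrils, at -1.39 (SE 0.516, adjusted p = 0.726). Endothelial markers had a median log2FC of 0.29 in untrained Tg (6 of 6 positive, 0 called; sums of 118 to 166 CPM in untrained WT, 149 to 173 in trained WT and 158 to 192 in untrained Tg libraries). Smooth muscle and pericyte markers had a median of 0.25 (6 of 6 positive, 1 called; sums of 251 to 384 and 374 to 421 CPM). Immediate early genes had a median of 0.92 (6 of 7 positive, 3 called). The part of vessel cells or early-response transcription in the Adamts1 and Adamtsl4 values was not tested.

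**Figure D5:**
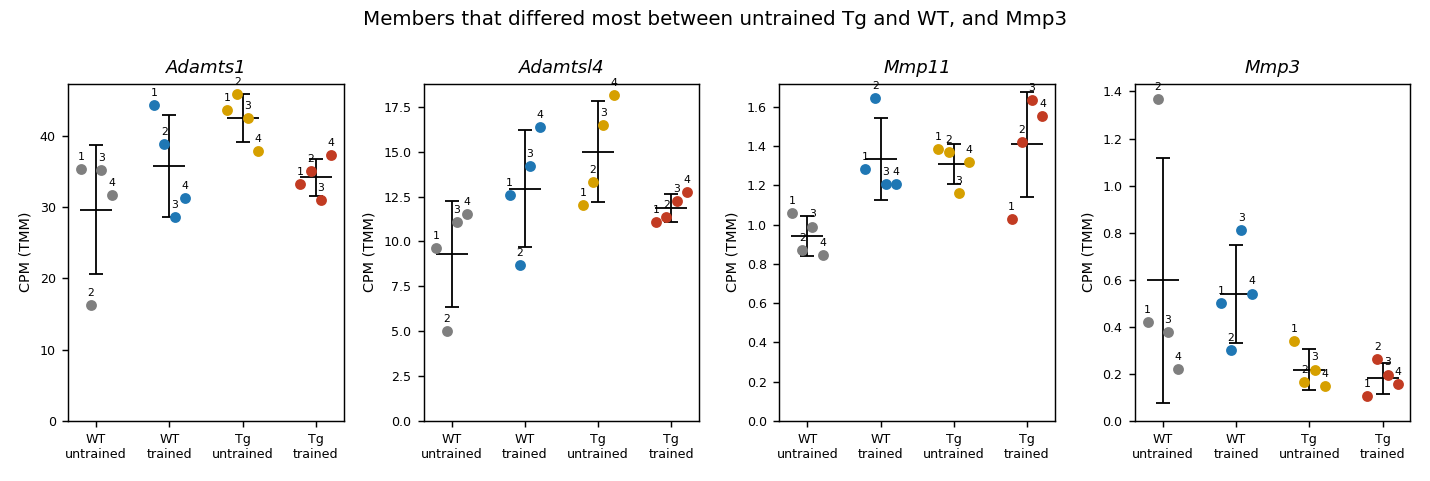
CPM of Adamts1, Adamtsl4, Mmp11 and Mmp3 by group, with a numbered point for each replicate and the mean ± SD (n = 4) in black. Untrained Tg libraries lie above untrained WT libraries without overlap for the first 3 genes, and Mmp3 is lower in Tg, with untrained WT replicate 2 far above the other libraries.

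Several ADAMTS and ADAMTS-like genes were lower in trained than in untrained Tg muscle, and none was called. Adamts9 measured 18.2 ± 6.52 CPM in untrained WT, 15.3 ± 6.53 in trained WT, 16.5 ± 4.58 in untrained Tg and 9.68 ± 1.31 in trained Tg libraries. Its log2FC for training in Tg was -0.77 (SE 0.306, adjusted p = 0.368), and WT libraries ranged from 8.31 to 23.7 CPM. Adamtsl1 had a log2FC of -0.79 (SE 0.235, adjusted p = 0.239) for training in Tg, the smallest p of any member there. Adamts5 had -0.33 (SE 0.131, adjusted p = 0.367) and Adamtsl2 -0.92 (SE 0.367, adjusted p = 0.368). For training in Tg, 4 members had groups that did not overlap in the lower direction (Adamts1, Adamts9, Mmp2 and Adamtsl1, or 10.8% against 4.53% of all tested genes), and none in the higher direction (4.65%). The fibroblast marker sums given above were also lowest on the median in trained Tg libraries (488 CPM, against 725 in untrained Tg).

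No TIMP gene was called in any comparison. Timp3, whose product binds the matrix and also blocks ADAMTS enzymes, measured 127 ± 19.1 CPM in untrained WT, 117 ± 12.7 in trained WT, 120.4 ± 9.79 in untrained Tg and 110.7 ± 5.97 in trained Tg libraries. Its averaged log2FC was -0.12 (SE 0.071, adjusted p = 0.461) for training and -0.08 (SE 0.071, adjusted p = 0.607) for genotype. Timp4 measured 23.6 ± 7.70, 23.9 ± 5.54, 20.99 ± 4.13 and 21.5 ± 2.95 CPM in untrained WT, trained WT, untrained Tg and trained Tg libraries. Timp1, the inducible TIMP of injured tissue, was low, at 0.449 ± 0.0818, 0.496 ± 0.415, 0.315 ± 0.154 and 0.311 ± 0.158 CPM in the same order. Trained WT libraries split for Timp1, with 0.0930 and 0.185 CPM in replicates 1 and 2 and 0.812 and 0.895 in replicates 3 and 4. The lowest adjusted p over the 7 contrasts was 0.188 for Timp2, 0.461 for Timp3, 0.476 for Timp1 and 0.646 for Timp4.

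Other genes of matrix proteolysis showed no call either. Of 23 regulators fixed as a list (inhibitors, plasminogen activators, cathepsins and convertases), 20 were tested and none was called in any of the 7 contrasts. For training averaged over genotypes, 16 of 20 were negative (median -0.27), among them Thbs1, the thrombospondin-1 gene (log2FC -1.72, SE 0.401, adjusted p = 0.0739). Of 20 substrates, 19 were tested and none was called. For training, 17 of 19 were negative (median -0.25), with Dcn, the decorin gene, at -0.66 (SE 0.144, adjusted p = 0.0574). Vcan, the versican gene and a substrate of ADAMTS proteases, had the smallest p among substrates for genotype averaged over training (log2FC -0.72, SE 0.181, adjusted p = 0.0631). None of 10 ADAM genes, the membrane-bound relatives of the ADAMTS family, was called. Adam8, a leukocyte sheddase gene, had the smallest p among them for genotype with training (log2FC -1.84, SE 0.392, adjusted p = 0.276). At an unadjusted p under 0.05 for training averaged over genotypes, 7 regulators, 11 substrates and 1 ADAM gene were lower and none was higher, or 7 of 20, 11 of 19 and 1 of 10, against 7.76% of all tested genes lower and 6.67% higher.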

How the data were processed

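Bulk RNA-seq of mouse skeletal muscle was used, 16 libraries in 4 groups of 4, grouped by the sample titles. STAR 2.7.8a, RSEM 1.3.2 and the mm10 build are named in the submitters' processing notes. The authors deposited RSEM expected counts per gene, not normalized (12.48% of values not whole), and they were rounded here. No annotation release is named in the sources used here. Counts of near-identical copies are uncertain, because RSEM splits shared reads by estimate. Genes were kept with filterByExpr by group (17490), scaled by TMM and fitted with edgeR 4.0.16 (R 4.3.3). The code was tested on simulated data. Exon lengths and positions came from GENCODE M21 (GRCm38), promoter windows from RefSeq (GRCm38.p6). The closest replicates differed by more than sampling noise (lowest chi-square per degree of freedom 7.08).

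The members and lists were chosen with earlier results of these data known. Named were the 4 Timp genes, called members, the 3 members with the smallest p per contrast and the 12 highest per kilobase. Other members named were chosen after their values were seen. Alternatives were RLE size factors, no filter, DESeq2 1.42.0, a replicate block, leaving out each library and leaving out libraries high in Myh7. Those leaving out libraries high in Ltf or low in Fmod were added after seeing the data. Some results on withheld items are not reported here.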

Additional observations from a re-analysis of the deposited data

Results flagged for a closer look

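Among the 20 members named by rule, each checked in 4 groups of 4 libraries, 1 of 80 groups held a library far from the others. Timp2 in untrained WT replicate 2 measured 72.1 CPM, with a gap to the next library of 0.849 of the group's range. The other libraries of that group lay between 47.5 and 51.2 CPM.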

How the results depend on the processing

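Over 23 alternatives for each of 45 gene values, none of 1035 values changed sign, 1002 stayed on the same side of the adjusted threshold, 18 moved past it and 15 lost a call, all 15 being Mmp9 between genotypes averaged over training. In that comparison the count of called members was 1. It was 3 without the low-count filter and 2 with DESeq2 (639 genes in all, against 196). It was 0 without the 4 libraries high in Myh7, 0 without the 2 high in Ltf and 0 without the 2 low in Fmod, and leaving out single libraries gave 0 to 3. Between genotypes with training the count was 0, and it became 2 with DESeq2 (54 genes in all) and 0 to 1 with single libraries left out. For training averaged over genotypes it was 0, and it became 2 with DESeq2 (367 genes in all) and 0 to 5 with single libraries left out. The count was 0 under all alternatives in the other 4 comparisons. The cause was not tested.

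Same-numbered libraries of different groups had a mean correlation of 0.0142 (24 pairs, 6 above 0.1). Libraries of different numbers had a mean of -0.00446 (72 pairs, 7 above 0.1). Of 16 libraries, 7 correlated best with one of their own number. These values do not settle whether the numbers pair the samples. With the replicate block, the member counts were 1 for genotype averaged over training and 0 in the other 6 comparisons. The block gave 66 calls over all genes without training between genotypes (130 without it), 1 with training (2) and 16 for training averaged over genotypes (80). Over all alternatives, calls among all genes ran from 15 to 68 for training in WT (25 in the fit reported), 0 to 126 for training in Tg (0), 32 to 442 for genotype without training (130), 1 to 54 with training (2), 4 to 35 for the difference of responses (9), 9 to 389 for training averaged (80) and 29 to 639 for genotype averaged (196). Depth limits the 14 untested members, Adamts17, Adamts18, Adamts4, Mmp16, Timp1 and Mmp3 (129 to 305 counts over 16 libraries), and Mmp13 in trained WT (8, 67, 1 and 15 counts).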
